A study of Mus musculus with 4 samples.

Results

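Macrophages carry on their surface a set of proteins through which they encourage or restrain T cells and other phagocytes. The 9 genes described here encode such proteins. Cd80, Cd86, Icosl and Cd40 belong to the costimulatory side. Cd274, Pdcd1lg2 and Havcr2 belong to the inhibitory checkpoints. Cd47 and Sirpa form the signal that restrains phagocytosis. They were found by exact match of their names among the 17013 genes of the deposited expression values, and all 9 were listed. Their values were compared between 2 culture media in bone marrow-derived macrophages of wild-type mice, which had been grown from marrow cells with M-CSF. In the fat control medium (Con), the inserts carrying the cells stood over the middle layer of a freeze-thawed abdominal fat preparation. In the high-fat-containing medium (Fat), the layer below them was the top fat layer of that preparation. Cells of both media also received artificial necrotic bone fluid (aNBF), an extract of freeze-thawed bone and marrow, so no library shows macrophages without a necrotic stimulus. RNA was collected after 24 h and sequenced in 2 libraries for each medium. Neither the labels nor the methods say whether the libraries of a medium came from separate mice or cultures, so p-values measure the spread between these libraries, which may be technical.

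A T cell that recognizes antigen on a macrophage needs a costimulatory signal as well, and CD80 and CD86 give it through CD28. The same ligands bind CTLA-4, which restrains the T cell. ICOS ligand sustains activated T cells, and CD40 receives the signal of CD40 ligand from T cells and arms the macrophage in return. PD-L1 and PD-L2, encoded by Cd274 and Pdcd1lg2, bind PD-1 and dampen T cell responses, and PD-L1 is well known to be induced by interferon through IRF1. TIM-3, encoded by Havcr2, is an inhibitory receptor found on T cells and on myeloid cells. CD47 is present on most cells and engages SIRPA on macrophages, which holds back phagocytosis.

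The libraries held between 33573852 and 40785872 reads in the listed genes. They were recovered from the deposited CPM (reads scaled to library size) as whole multiples of the value of 1 read, which lay between 0.0244 and 0.0295 CPM. The CPM of a library summed to between 989935 and 1.00977e+06, so the scaling was not by these reads alone. All 8 macrophage markers listed (such as Csf1r, Cd68, Itgam and Lyz2) had more than 3 reads in every library. Their summed level was 34068 to 36127 CPM in Con and 27024 to 28645 CPM in Fat, where Fcgr1 and Mertk were called lower. Most of that sum, and of its fall, was Lyz2, at 28720.5 and 26818.8 CPM in Con and 21516.1 and 20346.7 CPM in Fat. Lyz2 was not called (limma adjusted p = 0.209). Of the 8 markers, 6 were lower in both Fat libraries than in both Con libraries, beside 26.2% of all tested genes. The 10 dendritic cell markers summed to 740.6 and 943.2 CPM in Con and to 785.0 and 772.7 CPM in Fat. Flt3, Xcr1, Cd209a and Siglech had at most 7 reads in any library, while 6 markers had more than 3 reads in every library. Of the 6 that passed the filter, Batf3 was called lower in Fat and 5 were not called. The 8 T cell markers summed to 25.2 and 21.8 CPM in Con and to 16.3 and 15.8 CPM in Fat. The 7 that passed the filter on low values were lower in both Fat libraries than in both Con libraries, beside 26.2% of all tested genes. Of these 7, limma called 0, as did edgeR and DESeq2. By limma p-values of 0.05 or less before adjustment, 6 were lower, beside 12.4% of all tested genes. The 6 B cell markers summed to 23.8 and 22.8 CPM in Con and 18.2 and 22.0 CPM in Fat. The 8 adipocyte markers summed to 0.206 and 0.240 CPM in Con and to 12.4 and 6.51 CPM in Fat. Stromal and endothelial markers (7 of 8 listed, 305.7 and 321.1 CPM in Con, 264.3 and 352.6 in Fat) and neutrophil markers (5 of 6 listed, 50.5 to 58.9 CPM in Con, 49.5 to 51.4 in Fat) were present in each library. Among the 6 stromal and endothelial markers that passed the filter, Dcn was called lower, 16.7% beside 9.0% of all tested genes. Its limma adjusted p-value was 0.0358, and DESeq2 did not call it. Before adjustment, 3 of the 6 were lower and 0 higher at limma p-values of 0.05 or less, beside 12.4% and 11.8%. The 2 mesothelial markers listed summed to at most 0.781 CPM. The part that these other cells had in the results was not tested, and in RNA from a whole culture fewer cells of a type and less RNA per cell cannot be told apart.

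In macrophages cultured with Fat, 3 of the 9 genes were called lower, and they came from both sides of the balance. Cd40 fell by 1.27 on the log2 scale, Cd86 fell by 1.03 and Cd274 fell by 0.83. The other 6 were not called, and 0 of the 9 were called higher. Calls were made with limma on log2(CPM + 0.1) at a Benjamini-Hochberg adjusted p-value under 0.05, over the 12470 genes that reached 0.5 CPM in 2 or more libraries, and all 9 genes passed that filter. Of these 12470 genes, 5.0% were called lower and 3.99% higher. Of the calls over all genes 55.6% were in the lower direction, against 41.8% with the deposited TPM values, which are also scaled for gene length. By limma p-values of 0.05 or less before adjustment, 7 of the 9 were lower (12.4% of all tested genes) and 0 higher (11.8%), and edgeR and DESeq2 on the recovered reads also called 0 higher. In 8 of the 9 genes, Cd80, Icosl, Pdcd1lg2, Cd47 and Sirpa among them, both Fat libraries lay below both Con libraries, which was so for 26.2% of all tested genes, while 0 of the 9 had both Fat libraries above, beside 29.4%. The median log2 change of the 9 was -0.50, beside 0.01 for all tested genes.

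**Figure D1:**
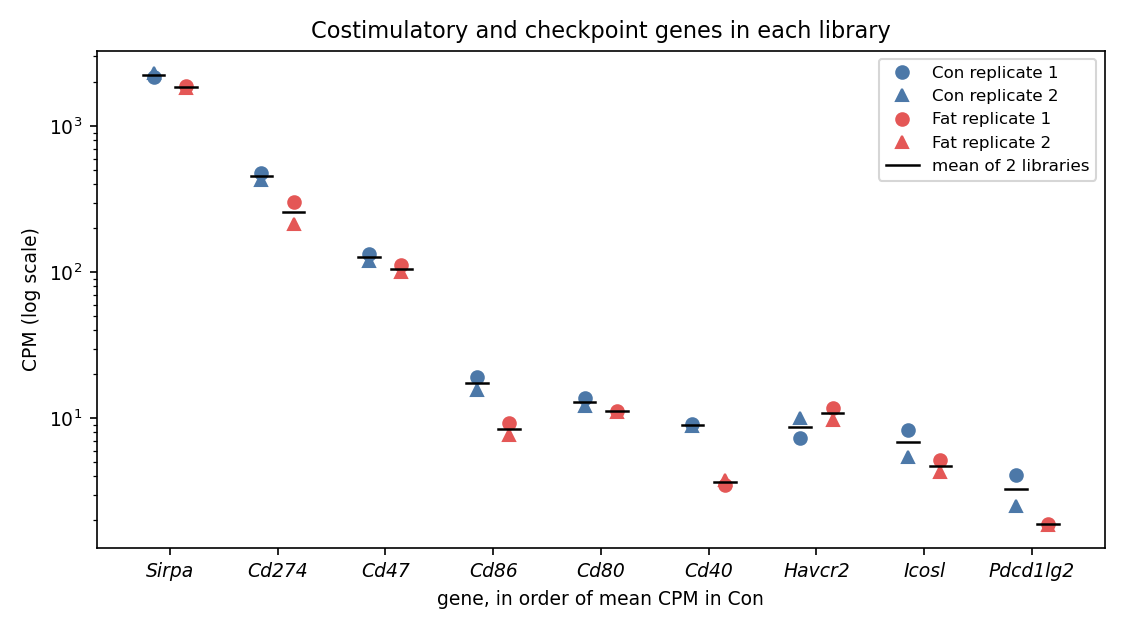
CPM of the 9 genes on a log axis in each library, with circles and triangles for replicates 1 and 2, blue for Con and red for Fat, and black bars at the mean of the 2 libraries of a medium. The levels run from 1.85 CPM for Pdcd1lg2 in Fat replicate 2 to 2299 CPM for Sirpa in Con replicate 2, and Havcr2 is the gene whose media overlap.

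Among the costimulatory ligands, Cd86 stood at 19.2 and 15.6 CPM in Con and 9.22 and 7.63 CPM in Fat, with replicate 1 of each medium given before replicate 2 here and for every gene that follows. Both Fat libraries were well below both Con libraries. The mean was 17.4 ± 2.53 CPM (SD, n = 2) in Con and 8.43 ± 1.12 CPM in Fat, a log2 change of -1.03 (standard error 0.13, limma adjusted p = 0.00624). Leaving out any 1 library gave values between -1.18 and -0.89. Such a fit has a single library in 1 medium, so that medium adds no spread. Its p-values, here and below, rest on the other medium's 2 libraries and on a variance that limma borrows from all tested genes. Over all alternatives the adjusted p-value lay between 5.6e-10 and 0.0831, the highest being that without limma's mean-variance trend, which ended the call.

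Cd80, the other ligand of CD28, was at 13.8 and 12.1 CPM in Con and at 11.3 and 11.05 CPM in Fat. Both Fat libraries were below both Con libraries, and the means differed by about as much as the Con libraries did from each other. Its log2 change of -0.20 (95% confidence interval -0.43 to 0.02, limma adjusted p = 0.255) was not called, and it was -0.11 without Con replicate 1. A fall as large as that of Cd86 lies outside this interval. Within a library, the log2 ratio of Cd86 to Cd80 in CPM was 0.48 and 0.37 in Con and -0.29 and -0.53 in Fat. The difference of -0.84 had an exact two-sided permutation p-value of 0.333, which is the smallest that 2 libraries against 2 can give. In TPM, on which levels of different genes can be compared, Cd86 lay below Cd80 in each library of both media. It made up 48.2% and 46.4% of the summed level of both ligands in Con and 35.3% and 31.6% in Fat. That summed level was 34.2 and 28.4 TPM in Con and 22.8 and 21.1 TPM in Fat.

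Icosl, the gene of the ICOS ligand, was at 8.31 and 5.41 CPM in Con and at 5.22 and 4.27 CPM in Fat. Con replicate 1 stood well above the other 3 libraries. The log2 change was -0.50 (95% confidence interval -0.98 to -0.01, limma adjusted p = 0.197) and the gene was not called. Both Con libraries weighed on this: the log2 change was -0.80 without Con replicate 2 and -0.19 without Con replicate 1.

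Cd40, the receptor through which T cells signal to macrophages, showed the largest change of the 9 genes. It was at 9.11 and 8.80 CPM in Con and at 3.51 and 3.78 CPM in Fat, resting on 309, 330, 131 and 155 reads in the same order. The libraries of a medium differed by far less than the media did. The mean fell from 8.95 ± 0.222 CPM (SD, n = 2) to 3.65 ± 0.192 CPM, a log2 change of -1.27 (standard error 0.12, limma adjusted p = 0.00297); by p-value it ranked 30 among all tested genes. Leaving out any 1 library gave values between -1.33 and -1.22, and it was called in every alternative tried, with adjusted p-values from 5.13e-09 to 0.0456.

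The genes that carry the CD40 signal inside the cell were also counted. Of 17 genes for TRAF adaptors, ubiquitin ligases, kinases and subunits of NF-kB and its inhibitors, 1 was called lower and 0 higher, a share of 5.88% beside 9.0% of all tested genes. Their median log2 change was -0.03, and by limma p-values of 0.05 or less before adjustment, 4 were lower and 0 higher, beside 12.4% and 11.8% of all tested genes. The gene called was Birc3, a ubiquitin ligase of the TRAF complex, at 65.7 and 55.2 CPM in Con and 46.3 and 45.5 CPM in Fat (log2 change -0.39, adjusted p = 0.0326). It lost its call when Con replicate 1 or either Fat library was left out. Traf1, which NF-kB itself induces, had a log2 change of -0.37 (adjusted p = 0.293), and Nfkb2 and Relb, of the noncanonical pathway that CD40 engages, had -0.16 and -0.25 (adjusted p = 0.252 and 0.135).

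Cd274, the gene of PD-L1, was among the more abundant of the 9 genes, at 479.8 and 425.6 CPM in Con and 300.9 and 213.8 CPM in Fat. Both Fat libraries were lower than both Con libraries, and the Fat libraries differed more from each other than the Con libraries did, by 0.49 against 0.17 on the log2 scale. The mean was 452.7 ± 38.3 CPM (SD, n = 2) in Con and 257.3 ± 61.6 CPM in Fat, a log2 change of -0.83 (standard error 0.15, limma adjusted p = 0.0164). It was -0.59 without Fat replicate 2 and -1.08 without Fat replicate 1. With the TPM values the adjusted p-value was 0.0744 and without the mean-variance trend it was 0.129, so the call was lost in both, within a range over all alternatives of 3.28e-11 to 0.129. An antisense gene, AC119228.1, overlaps exons of Cd274 on the opposite strand, and it held 62 of the 74 stretches (of 710) of the Cd274 transcripts that were also found in other genes. The library kit marks strand, but whether the counting used it is not given in the sources used here. Reads from the stretches shared by both genes can therefore not be assigned to either.

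Pdcd1lg2, the gene of PD-L2, lies beside Cd274 on mouse chromosome 19. It was the least abundant of the 9 genes, at 4.07 and 2.51 CPM in Con and 1.90 and 1.85 CPM in Fat. These values rest on 138 and 94 reads in Con and on 71 and 76 reads in Fat, and the exact 95% Poisson interval of the 71 reads was 55.5 to 89.6 reads, an interval for counting error alone, because PCR copies could not be removed without molecular tags. The Fat libraries were nearly equal and the Con libraries were 0.68 apart on the log2 scale. The log2 change was -0.74 (standard error 0.24, 95% confidence interval -1.29 to -0.19, limma adjusted p = 0.105), which was not called, and both Con libraries weighed on it: dropping Con replicate 2 gave -1.08 (adjusted p = 0.0157) and dropping Con replicate 1 gave -0.40 (adjusted p = 0.425). The log2 ratio of Cd274 to Pdcd1lg2 was 6.88 and 7.41 in Con and 7.31 and 6.85 in Fat, so the media overlapped, with a difference of -0.07 (exact two-sided permutation p = 0.667). In TPM, Cd274 made up 99.1% to 99.4% of the summed level of both PD-1 ligands in each library. That sum was 8.51 and 8.89 times the sum of Cd80 and Cd86 in Con and 8.10 and 6.24 times that sum in Fat.

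The promoter windows of these neighbouring genes, from RefSeq on build GRCm38.p6, are shown because both genes were lower in each Fat library. Each runs from 250 bases before to 50 bases after the annotated start, on the plus strand, at chr19:29367188-29367487 for Cd274 and chr19:29410669-29410968 for Pdcd1lg2, with the starts 43481 bases apart. Capitals mark a match, on either strand, to the STAT motif GAS (TTCNNNGAA), to the core of the interferon-stimulated response element (GAAA and GAAA with any 2 bases between them) or to the kappa B motif of NF-kB.
Cd274: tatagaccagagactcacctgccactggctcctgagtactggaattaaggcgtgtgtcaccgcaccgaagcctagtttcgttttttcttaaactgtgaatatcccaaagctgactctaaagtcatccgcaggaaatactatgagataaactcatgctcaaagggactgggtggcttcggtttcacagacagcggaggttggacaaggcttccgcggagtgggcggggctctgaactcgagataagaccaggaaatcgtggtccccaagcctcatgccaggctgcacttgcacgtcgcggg
Pdcd1lg2: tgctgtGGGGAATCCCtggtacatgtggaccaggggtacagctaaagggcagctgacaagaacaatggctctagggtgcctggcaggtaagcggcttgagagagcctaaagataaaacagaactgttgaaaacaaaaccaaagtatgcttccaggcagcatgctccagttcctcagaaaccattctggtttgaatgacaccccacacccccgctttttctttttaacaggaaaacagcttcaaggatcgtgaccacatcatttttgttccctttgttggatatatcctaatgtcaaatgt
The Pdcd1lg2 window held a kappa B match that reads on both strands, 235 bases before the start, overlapping no other match. The Cd274 window held none of the 3 motifs, which says only that these letters are absent from this window. Over all 32851 windows of this length, 8.3% held the GAS motif, 3.44% the core of the response element and 8.46% the kappa B motif. Windows were found for 6 of the 9 genes, and among the others the Icosl window held a kappa B match, while those of Cd80, Havcr2 and Cd47 held none of the 3. Cd86, Cd40 and Sirpa had no entry.

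**Figure D2:**
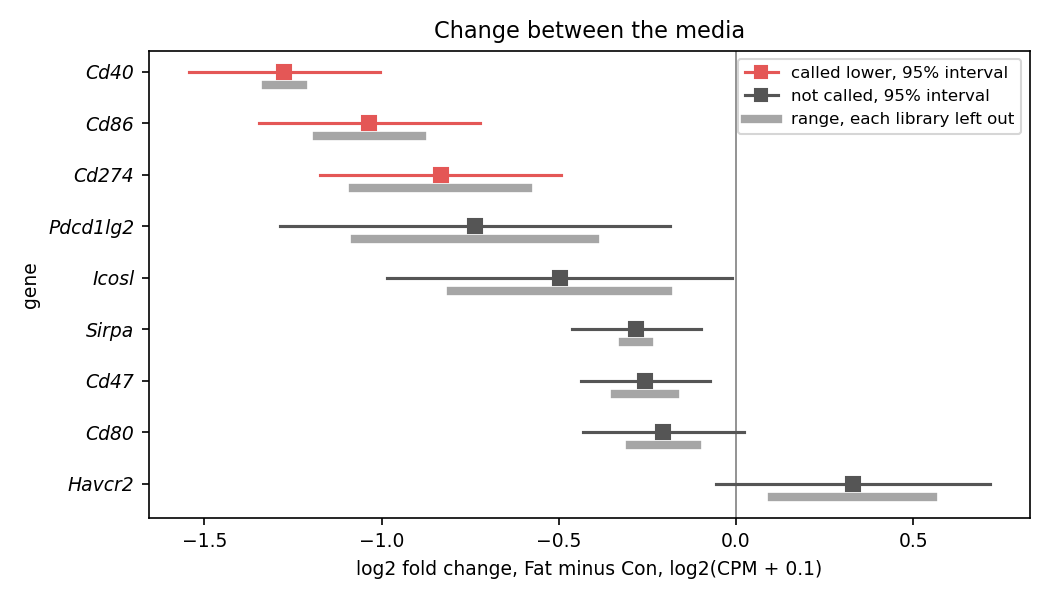
Log2 change of the 9 genes between Fat and Con (squares) with the 95% confidence interval of limma, in red where called lower and grey where not called, and below each a thick bar for the range when any 1 library is dropped. Cd40, Cd86 and Cd274 lie at -1.27, -1.03 and -0.83, and Havcr2 alone lies above 0, at 0.33.

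Havcr2, the gene of the inhibitory receptor TIM-3, was the only one of the 9 with a positive log2 change. It was at 7.28 and 10.0 CPM in Con and at 11.8 and 9.78 CPM in Fat. The media overlapped, since Fat replicate 2 lay below Con replicate 2. Its log2 change was 0.33 (95% confidence interval -0.06 to 0.72, limma adjusted p = 0.277), and it was not called in any alternative tried. The size rested on single libraries, at 0.10 without Con replicate 1 (adjusted p = 0.777), 0.19 without Fat replicate 1 (adjusted p = 0.635) and 0.56 without Con replicate 2 (adjusted p = 0.0518). Of the partners of TIM-3, Lgals9, which encodes galectin-9, was called lower, at 175.8 and 150.2 CPM in Con and 126.1 and 90.6 CPM in Fat (log2 change -0.60, adjusted p = 0.0455), a call lost without Con replicate 1, without Fat replicate 2 and with DESeq2. Ceacam1 and Hmgb1 had log2 changes of 0.02 each (adjusted p = 0.934 and 0.943).

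Sirpa, the receptor of CD47, was the most abundant of the 9 genes, at 2185 and 2299 CPM in Con and 1871 and 1818 CPM in Fat. Both Fat libraries were below both Con libraries, and the libraries of a medium were close together. The mean was 2242 ± 80.2 CPM (SD, n = 2) in Con and 1844 ± 37.2 CPM in Fat, a log2 change of -0.28 (standard error 0.08, 95% confidence interval -0.46 to -0.10). limma did not call it (adjusted p = 0.0701), and nor did edgeR's quasi-likelihood test on the recovered reads (adjusted p = 0.0572), whereas DESeq2 did (adjusted p = 0.000848). Its transcripts shared 0 of 2730 stretches of 75 bases with other genes, the length of a read.

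Cd47 was at 133.8 and 119.1 CPM in Con and at 111.5 and 100.2 CPM in Fat. The Fat libraries were again both lower, by about as much as Sirpa. The log2 change was -0.26 (standard error 0.08, 95% confidence interval -0.44 to -0.07, limma adjusted p = 0.0916), not called. It was -0.34 (adjusted p = 0.0293) without Con replicate 2, -0.17 (adjusted p = 0.294) without Con replicate 1 and -0.18 (adjusted p = 0.369) without Fat replicate 2. The log2 ratio of Sirpa to Cd47 was 4.03 and 4.27 in Con and 4.07 and 4.18 in Fat, which overlapped, with a difference of -0.02 (exact two-sided permutation p-value of 1.0).

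**Figure D3:**
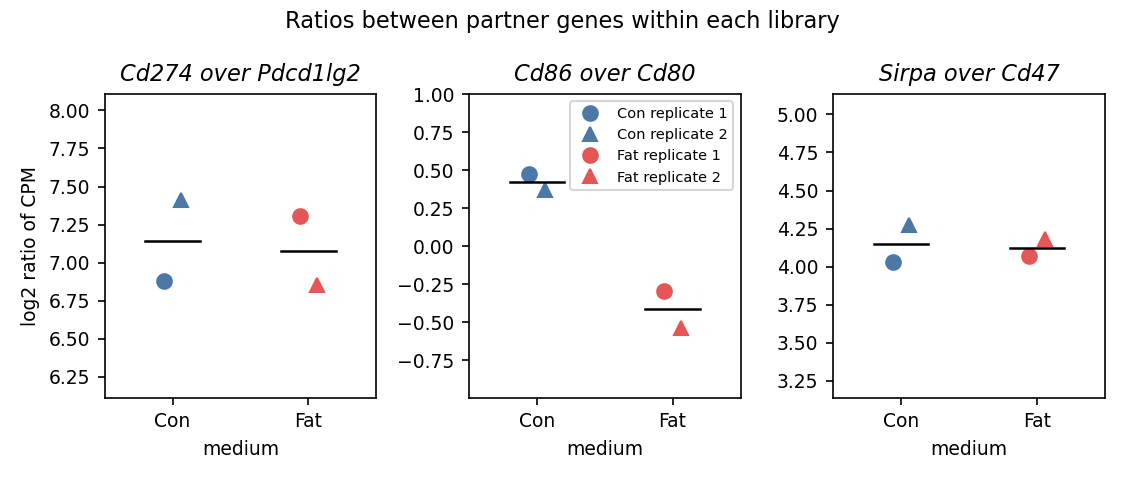
Log2 ratio of CPM between partner genes within each library, for Cd274 over Pdcd1lg2, Cd86 over Cd80 and Sirpa over Cd47, with black bars at the mean of each medium and axes of equal span. The media are apart for Cd86 over Cd80 (difference -0.84) and overlap for the others (differences -0.07 and -0.02).

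Ranked by TPM, the order in Con was Sirpa (1138 ± 25.004 TPM, SD, n = 2), Cd274 (269.8 ± 26.6), Cd47 (143.3 ± 13.8), Cd80 (16.5 ± 1.75), Cd86 (14.8 ± 2.36), Cd40 (10.9 ± 0.420), Havcr2 (6.87 ± 1.45), Icosl (5.42 ± 1.69) and Pdcd1lg2 (2.09 ± 0.730). In this order Cd80 and Cd86 overlapped between libraries, as did Havcr2 and Icosl, while the libraries of all other neighbours were apart. In Fat the foremost 4 genes kept their places, and Havcr2 (8.79 ± 1.19 TPM) came before Cd86 (7.35 ± 0.98) and Cd40 (4.53 ± 0.235). Havcr2 and Cd86 were the only neighbours in Fat whose libraries overlapped. The level of Cd274 there was 156.7 ± 37.6 TPM, close above the 122.5 ± 9.29 TPM of Cd47.

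Genes that act before and after these surface proteins were taken from lists named by hand with earlier results of these data known. The list of interferon receptors, their kinases, STAT and IRF factors and SOCS inhibitors, which stand upstream of PD-L1, held 15 tested genes. Of these, 6 were called lower and 0 higher. This was 40.0% called, against 9.0% of all tested genes, and the median log2 change was -0.23. At limma p-values of 0.05 or less before adjustment, 9 were lower and 0 higher, beside 12.4% and 11.8% of all tested genes. Irf1, the transcription factor that acts directly on the PD-L1 gene, was at 366.9 and 361.8 CPM in Con and 224.3 and 180.0 CPM in Fat (log2 change -0.86, adjusted p = 0.00447). As with Cd274, Fat replicate 2 was the lowest library, and whether the changes of Irf1 and Cd274 are linked was not tested. The feedback inhibitors Socs1 and Socs3 had log2 changes of -1.02 and -0.60 (adjusted p = 0.017 and 0.0298), and Jak2 and Irf2 of -0.29 and -0.27 (adjusted p = 0.0476 and 0.037). The receptor genes Ifngr1 and Ifngr2 were not called (log2 changes 0.06 and -0.18, adjusted p = 0.631 and 0.0965). The number called was 2 without Con replicate 1 and 3 without Fat replicate 2. Irf1 was called with any 1 library left out, whereas Socs1 lost its call without Con replicate 1, and Socs3, Jak2 and Irf2 without Con replicate 1 or without Fat replicate 2.

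Of 5 genes known to set how long PD-L1 or CD86 stays at the surface, 2 were called lower and 0 higher by limma. This rests on 5 genes only, beside 9.0% of all tested genes called in either direction. By limma p-values of 0.05 or less before adjustment, 3 were lower and 1 higher, beside 12.4% and 11.8% of all tested genes. March1, a ubiquitin ligase that removes CD86, was at 196.3 and 173.7 CPM in Con and 141.0 and 132.4 CPM in Fat (log2 change -0.43, adjusted p = 0.0144). Cd83, which opposes MARCH1, had a log2 change of -0.28 (adjusted p = 0.0464) and lost its call with any 1 library left out. Cmtm6 and Cmtm4, which keep PD-L1 from degradation, had log2 changes of -0.21 and 0.21 and were not called (adjusted p = 0.0518 and 0.0785).

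Other ligands of the B7, TNF, nectin and adhesion families numbered 22 in the deposited values, of which 17 passed the filter, and limma called 3 of them lower and 1 higher, 23.5% beside 9.0% of all tested genes. Their median log2 change was -0.01, beside -0.50 for the 9 genes. Tnfsf18, the gene of the GITR ligand, had 30 and 36 reads in Con and 13 reads in each Fat library (log2 change -1.24, adjusted p = 0.0371), and lost its call with any 1 library left out and with DESeq2. Icam1, the adhesion ligand of LFA-1, was at 108.7 and 92.1 CPM in Con and 67.1 and 57.1 CPM in Fat (log2 change -0.69, adjusted p = 0.00919). The gene called higher was Pvr, a ligand of TIGIT and CD226, at 20.6 and 20.0 CPM in Con and 26.1 and 24.95 CPM in Fat (log2 change 0.33, adjusted p = 0.0305). Its call was lost with any 1 library left out, with DESeq2 and with the TPM values. VISTA, listed as 4632428N05Rik, had a log2 change of 0.04 (adjusted p = 0.81) and Cd276, the gene of B7-H3, one of 0.32 (adjusted p = 0.0986). The number called was 1 without Con replicate 1 and 1 without Fat replicate 2, and 0 with the TPM values.

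The receptors that these ligands meet on lymphocytes were all listed, at no more than 7.34 CPM in any library, and 13 of 14 passed the filter, of which 15.4% were called, beside 9.0% of all tested genes. Cd28 was called higher, at 4.07 and 3.71 CPM in Con and 7.34 and 6.32 CPM in Fat (log2 change 0.79, adjusted p = 0.0145). Tnfrsf9, the gene of 4-1BB, was called lower, at 5.51 and 3.95 CPM in Con and 2.63 and 2.07 CPM in Fat (log2 change -0.97, adjusted p = 0.0289). The genes of the other receptors of the 9 proteins, Ctla4, Icos and Pdcd1, had log2 changes of -0.64, -0.35 and -0.33 and were not called (adjusted p = 0.166, 0.401 and 0.51), and Cd40lg had at most 7 reads in a library. The direction of Cd28 was opposite to that of the T cell markers, such as Cd3d, Cd3e and Cd3g, whose log2 changes were -0.78, -0.62 and -0.79 (adjusted p = 0.117, 0.301 and 0.0593). Without Con replicate 1 or without Fat replicate 2, Cd28 alone of these receptors was called, and with the TPM values none of them was.

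Among 15 tested genes that act with CD47 and SIRPA, 2 were called lower and 0 higher by limma, 13.3% beside 9.0% of all tested genes. By limma p-values of 0.05 or less before adjustment, 2 were lower and 1 higher, beside 12.4% and 11.8% of all tested genes. Their median log2 change was -8.92e-05. Ptpn6 encodes SHP-1, the phosphatase through which SIRPA signals, and was at 462.5 and 445.8 CPM in Con and 289.1 and 269.2 CPM in Fat (log2 change -0.70, standard error 0.06, adjusted p = 0.00286). Ptpn11, which encodes the related SHP-2, had a log2 change of 0.02 (adjusted p = 0.825). Slamf7, a receptor of phagocytes, had one of -0.37 (adjusted p = 0.0244) and lost its call without Con replicate 1 or without Fat replicate 2. Thbs1, a secreted ligand of CD47, had one of 0.38 (adjusted p = 0.116). Of 15 further inhibitory receptors of myeloid cells above the filter, limma called 4 lower and 1 higher (33.3%), with a median log2 change of -0.16. Clec12a (-0.62, adjusted p = 0.00466), Fcgr2b (-0.57, adjusted p = 0.0175), Lair1 (-0.45, adjusted p = 0.0091) and Pilra (-0.39, adjusted p = 0.0236, lost without Con replicate 1 or either Fat library) were lower on the log2 scale, and Cd300a was higher, at 302.0 and 303.5 CPM in Con and 423.5 and 412.0 CPM in Fat (log2 change 0.46, adjusted p = 0.00469).

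**Figure D4:**
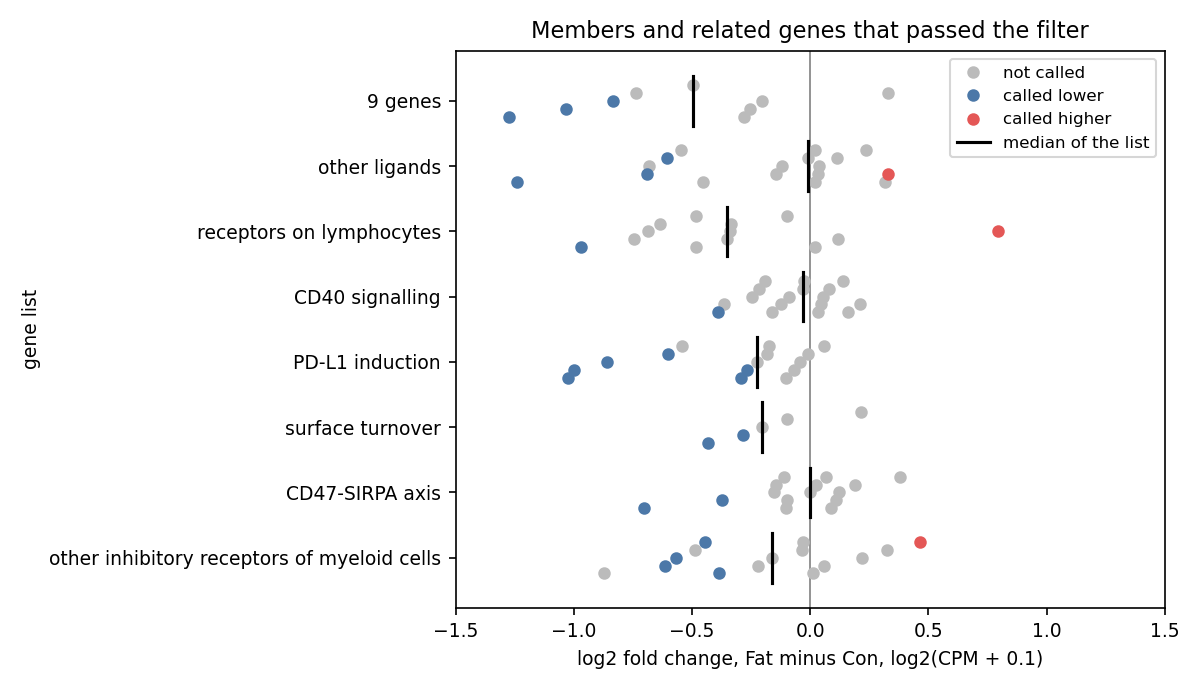
Log2 change between Fat and Con of the 9 genes and of each related list, 1 point for each gene that passed the filter, blue where called lower, red where called higher and grey where not called, with black bars at list medians and points spread vertically for legibility. The median is -0.50 for the 9 genes, -0.23 for the genes upstream of PD-L1 and -0.03 for those that carry the CD40 signal.

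For each of the 3 genes called, the genes with the most similar profile over the 4 libraries were sought among the 9759 genes whose mean reached 5 CPM, by the root mean square distance of centred log2(CPM + 0.1). Nearest to Cd274 were Ube2l6 (0.0251), Fcgr1 (0.0267) and Pnp (0.0397). Fcgr1 encodes a high-affinity Fc receptor, and was at 278.1 and 242.0 CPM in Con and 165.6 and 120.7 CPM in Fat. Nearest to Cd86 were Wfdc17 (0.03), Ass1 (0.0409) and Gm5424 (0.042), and the CPM of the latter 2 genes were so alike in each library (31.5 and 24.6 CPM for both in Con) that they may count the same reads. Cd40 had no neighbour as close, the nearest being Slc2a6 (0.139), Kif5c (0.156) and Ciita (0.163), each with a smaller fall than that of Cd40. With 4 libraries, a short distance is a description of these libraries.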

How the data were processed

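Macrophage RNA was sequenced as 4 stranded poly(A) libraries with single reads of 75 bases. The authors deposited CPM values (reads scaled to a library size that differed slightly from the summed reads) and TPM values (scaled for length too), each per gene and library. The submitters' processing notes name GRCm39, and the aligner and counter are not given in the sources used here. Of the CPM values, 100% were whole multiples of 1 read within 0.001, and reads were recovered from them. Log2(CPM + 0.1) was fitted with limma 3.58.1 with a mean-variance trend (R 4.3.3) for Fat against Con, two-sided, over genes with at least 0.5 CPM in 2 libraries, with Benjamini-Hochberg adjustment. Alternatives were edgeR 4.0.16 and DESeq2 1.42.0 on recovered reads, TPM, a pseudocount of 1, other filters, median ratio scaling, no trend, a replicate block and each library left out. With 1 library left out, 1 medium holds a single library. The p-values and calls of those fits rest on the spread between the 2 libraries of the other medium and on the variance that limma borrows from all tested genes. The code was tested on simulated data. Stretches of 75 bases were placed with BWA 0.7.19 on GENCODE vM21 transcripts, allowing 2 mismatches. The 9 genes and the lists were chosen with earlier results of these data known. Named from each list were up to 4 called genes with the largest absolute log2 fold change, any called against the list's direction and, for each of the 9 that was called, 3 nearest profiles. Other list genes, and the sums and shares of TPM, were picked for their role after values were seen. One called gene of a list is not reported here.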

Additional observations from a re-analysis of the deposited data

How the results depend on the processing

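No gene among the 9 changed the sign of its log2 change under any alternative, whereas with each library left out the differences in log2 ratio lay between -0.33 and 0.20 for Cd274 over Pdcd1lg2 and between -0.15 and 0.10 for Sirpa over Cd47. Of the 9 genes, 3 were called lower. This was 1 without the mean-variance trend (Cd40), 7 by p-values of 0.05 or less before adjustment, and 3 to 6 with each library left out, the 6 without Con replicate 2, where Icosl, Pdcd1lg2 and Cd47 were added. None of the alternatives called any of the 9 higher. The calls of the related lists moved too. With TPM they were 0 for other ligands, lymphocyte receptors, CD40 signalling and surface turnover, 2 upstream of PD-L1, 1 beside CD47 and SIRPA and 3 among other inhibitory receptors. Without the trend, 1 other ligand was called and 0 in every other list. With a mean of at least 5 CPM, 2 other ligands, 1 lymphocyte receptor and 4 genes upstream of PD-L1 were called. With DESeq2 it was 2 other ligands. Without a filter it was 1 surface turnover gene. Before adjustment, 5 lymphocyte receptors, 4 CD40 signalling genes, 4 surface turnover genes and 8 other inhibitory receptors passed. With each library left out, the range was 1 to 5 for other ligands, 1 to 2 for lymphocyte receptors, 0 to 3 for CD40 signalling, 2 to 8 upstream of PD-L1, 1 for surface turnover, 1 to 2 beside CD47 and SIRPA and 4 to 6 for other inhibitory receptors. The cause of these moves was not tested.

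The libraries share only replicate numbers, and deviations of same-numbered libraries had a correlation of 0.2 across genes, which does not establish pairs. With the replicate block, 7 of the 9 genes were called lower (adjusted p = 0.00663 for Icosl, 0.00607 for Pdcd1lg2, 0.000854 for Cd47 and 0.0469 for Sirpa), as were 8 other ligands, 3 lymphocyte receptors, 3 CD40 signalling genes, 10 genes upstream of PD-L1, 4 of surface turnover, 3 beside CD47 and SIRPA and 9 other inhibitory receptors, in either direction, and 2520 of all genes. Over all genes the calls numbered 31 without the trend and 407 with TPM. With 2 libraries a medium, a permutation test of 1 value cannot go below 0.333, and the 71 to 138 reads of Pdcd1lg2 limit its precision.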
